A study of Danio rerio with 15 samples.

Results

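The genes described here are 53 of the 5686 genes listed in a gene expression table of the regenerating zebrafish kidney, chosen by their symbols as genes of leukocyte identity and antigen presentation. The symbols were those beginning with cd and a number, the major histocompatibility complex and peptide transport genes, immunoglobulin loci, lymphocyte receptor, signalling and recombinase genes, NK-lysins, neutrophil and macrophage genes, coronin 1, phagocyte oxidase subunits, cathepsins and ets factors. The choice used symbols and no measured values, but earlier results of these data were known when it was made. All kidneys came from AB strain zebrafish (Danio rerio) aged 6 months. The injured groups had received gentamicin, an antibiotic toxic to kidney tubules, by intraperitoneal injection. Kidneys were collected uninjured and at 1, 3, 5 and 7 days post injury (dpi), with 3 samples in each of the 5 groups. Injected fish were kept for later use only if they excreted protein in their urine at 1 dpi. The sources used here do not say whether a sample was 1 fish or a pool, or whether uninjured fish received a vehicle injection, so p-values measure the spread between these samples. Values are FPKM, fragments per kilobase of gene scaled to the mapped reads of the library, a level that can be compared between genes because it is divided by gene length. Changes are differences in log2(FPKM + 1), given with their standard error (SE).

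The zebrafish kidney is both a filtering organ and the main site of adult blood formation. Its marrow, which lies between the tubules, holds blood progenitors, granulocytes, macrophages and lymphocytes, so leukocyte transcripts are abundant in it without injury. Antigen presenting cells load peptides onto class II molecules with the help of the invariant chain, Cd74, and most cells load peptides onto class I molecules after transport by Tap. B cells build immunoglobulin genes by joining a variable segment to other short segments, a reaction that begins with the Rag recombinase. The constant region is joined to them later, by splicing of the transcript. Each clone of B cells transcribes its own variable segment. Neutrophils and macrophages kill microbes with an oxidase whose subunits include Cyba and Ncf4.

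By lineage, the 53 genes were 21 B cell and immunoglobulin genes, 8 T cell and natural killer (NK) cell genes, 8 antigen presentation genes, 4 neutrophil and macrophage genes, 3 cathepsins, 2 oxidase subunits, 5 broadly expressed genes, cd83 and ets2. The recombinase gene rag1 was counted with the T and NK cell genes, although developing B cells use it too. The table listed some of the genes that define leukocytes or antigen presentation, namely mpx, mpeg1.1, marco, cd4-1, rag1, tap1 and cd74a. Of these, tap1 is not restricted to leukocytes, as most cells use Tap. Other defining genes such as ptprc, lcp1, lyz, csf1ra, lck and cd79a were not listed under these symbols, so they could not be analysed. The FPKM correspond to 13875548 to 16367612 reads per library, and 7 of the 53 genes had fewer than 3 reads in at least 1 sample. All 53 passed the filter of a value above 0 in at least 3 of the 15 samples. The table is a selection of genes, so every share of genes below is a share of the listed genes. How the genes were selected is not stated. If they were listed because they differed among these samples, the tests below are not independent of that choice.

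In 34 of the 53 genes the highest mean was at 5 or 7 dpi. In late against early injured kidneys 24 of the 53 (45.3%) passed the test as higher, against 15.5% of all listed genes. The group with the highest mean was 7 dpi for 20 of the 53 genes and 5 dpi for 14, against 10.5% and 13.8% of all listed genes. The lowest mean was at 1 dpi for 23 genes (43.4%) and in uninjured kidneys for 21 (39.6%), against 22.8% and 16.9% of all listed genes. By limma's F-test, 33 of the 53 genes differed among groups at an adjusted p below 0.05, which is 62.3%, close to the 64.5% of all listed genes that did. The heat map of the 15 samples shows a small set of genes highest at 1 dpi and a larger set highest at 5 and 7 dpi.

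**Figure D1:**
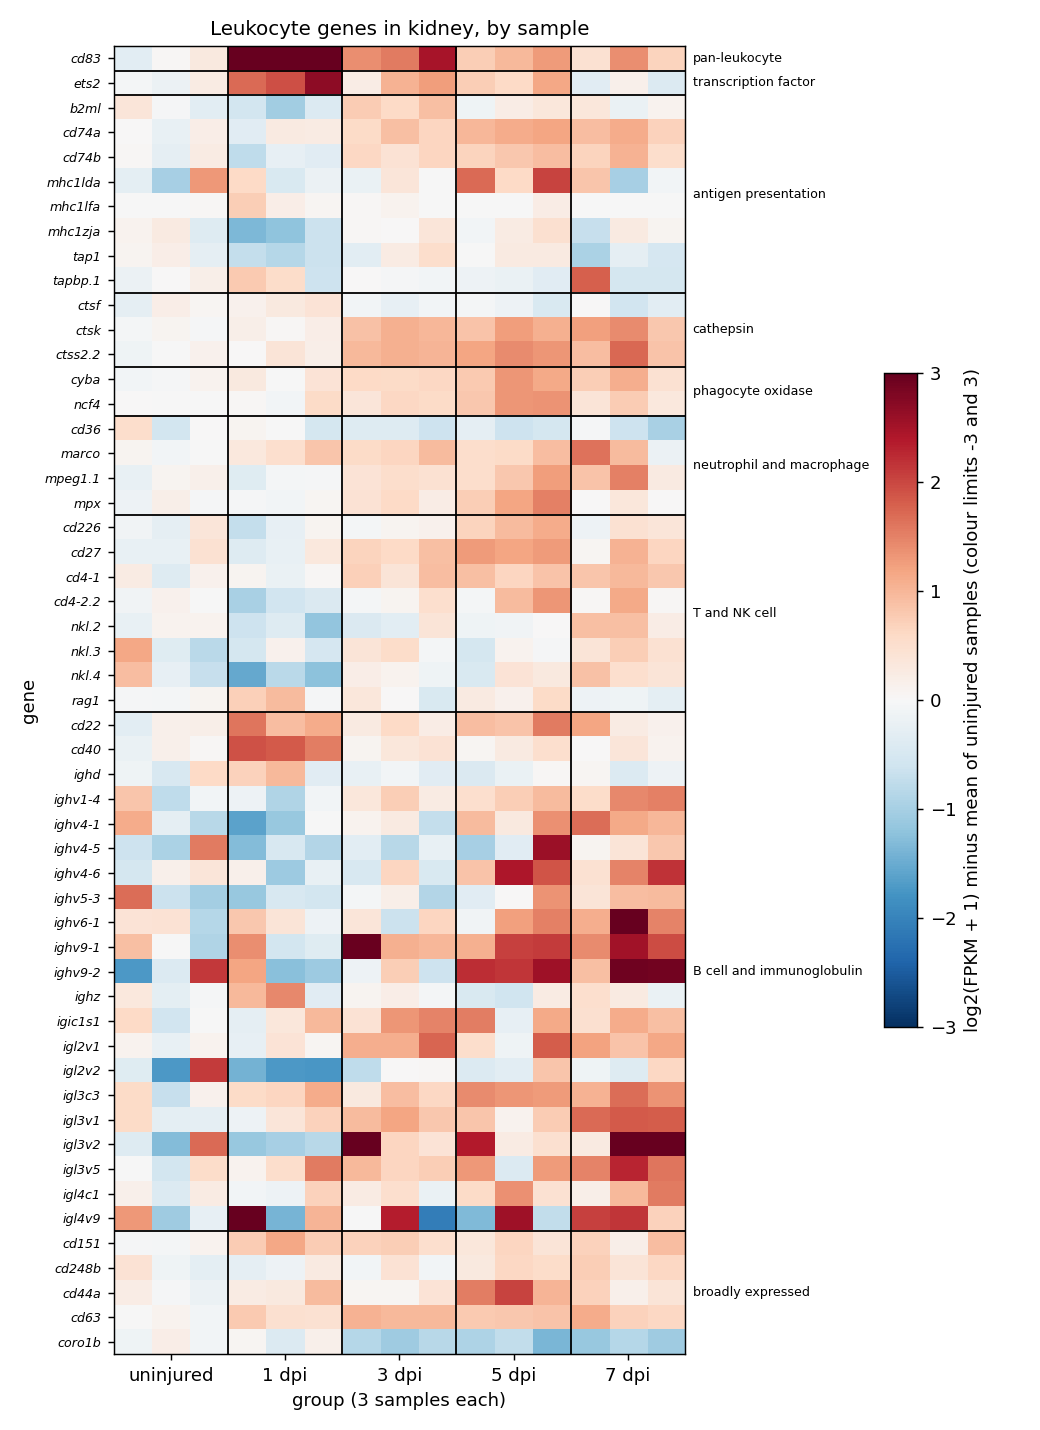
Each row is 1 of the 53 genes, ordered by lineage, and each column is 1 of the 15 samples, 3 per group from uninjured kidneys to 7 dpi. Colour gives log2(FPKM + 1) minus the gene's mean over the 3 uninjured samples, and values beyond -3 and 3 take the end colours. cd83, cd40 and ets2 are highest at 1 dpi, and 34 of the 53 genes have their highest mean at 5 or 7 dpi.

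Against uninjured kidneys, 5 of the 53 genes were called at 1 dpi at a limma adjusted p below 0.05, all higher, or 9.43% of them, against a background of 19.8% of all listed genes. At 3 dpi 6 were called, 5 higher and 1 lower, with a background of 13.3%. At 5 dpi 9 were called, 8 higher and 1 lower, with a background of 8.16%. At 7 dpi 9 were called, again 8 higher and 1 lower, with a background of 17.2%. For calls of higher genes alone, the background was 12.9%, 6.4%, 6.7% and 4.78% at 1, 3, 5 and 7 dpi, and for lower genes it was 6.9%, 6.91%, 1.46% and 12.4%. The median log2 change of the 53 genes was 0.08, 0.29, 0.74 and 0.59 at these times, and that of all listed genes was -0.09, -0.13, -0.09 and -0.22. The 4 comparisons share the same 3 uninjured samples, so their results are not independent of each other.

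These counts depended on single samples, and so did the calls among all listed genes. At 1 dpi, the count was 3 without replicate 1 or 2 of 1 dpi or without replicate 1 or 3 of uninjured kidneys, and 4 and 5 without 1 dpi replicate 3 and uninjured replicate 2. At 3 dpi the count was 3 without replicate 1 of that group, 1 without uninjured replicate 3 and 0 without 3 dpi replicate 2 or 3 or uninjured replicate 1, where 14, 12 and 18 genes still had an unadjusted p below 0.05. Of all listed genes, 1432, 1580 and 1564 had such a p in the fits with a count of 0. Only 50, 159 and 138 of all listed genes were called there, against 757 with all samples. At 5 dpi it was 4 without replicate 1 of that group, 3 without uninjured replicate 3 and 0 in the other 4 cases, where 21 to 25 genes had an unadjusted p below 0.05. At 7 dpi it was 1 and 3 without uninjured replicates 1 and 3 and 0 without any of the 7 dpi samples, where 16 to 23 genes had an unadjusted p below 0.05. Without uninjured replicate 2 the count was 6 at 3 dpi and 9 at 7 dpi, and the calls among all listed genes were 1678 and 1916, against 757 and 975 with it. That sample differed most from the other uninjured samples, with a mean chi-square per gene of 181 and 206 against them and of 60.6 between the other 2. Its summed level of ovary genes was 32.5 FPKM, against 1650 and 2466 FPKM in uninjured replicates 1 and 3. Whether ovary transcripts account for the difference was not tested. The calls at 3, 5 and 7 dpi are therefore weaker than those of cd83, cd40 and ets2 at 1 dpi, which held in all 6 such fits. No call changed its sign under any alternative that was run.

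cd83, cd40 and ets2 formed the early set. cd83, a surface protein of activated dendritic cells and B cells in mammals, had 3.63, 4.90 and 6.12 FPKM in uninjured kidneys, 184, 122 and 106 at 1 dpi, 14.1, 15.9 and 31 at 3 dpi, 8.74, 10.4 and 13 at 5 dpi and 6.92, 14.2 and 8.25 at 7 dpi. Every injured sample was above the highest uninjured sample. The mean at 1 dpi was 137 ± 41.1 FPKM against 4.88 ± 1.25 FPKM in uninjured kidneys (SD, n = 3 each), a ratio of 28.1. The log2 change at 1 dpi was 4.54 (SE 0.29, limma adjusted p = 5.11e-04), which ranked 32 from the top among 5685 genes tested. At 3 dpi cd83 was still higher, by 1.80 (SE 0.34, limma adjusted p = 0.0259), but this call was lost in 4 of 6 fits without 1 sample, with a limma adjusted p of up to 0.0819. At 5 and 7 dpi its log2 changes were 1.0 and 0.84, with limma adjusted p values of 0.0621 and 0.111. As these are bulk tissue samples, more cells of a type and more RNA per cell cannot be told apart for this or any other gene.

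cd40 encodes a receptor of the tumour necrosis factor family through which B cells and antigen presenting cells are costimulated. It had 27.2, 34.9 and 31.7 FPKM in uninjured kidneys, 119, 114 and 92.6 at 1 dpi, 33.2, 39.7 and 42.3 at 3 dpi, 32.7, 37.6 and 44.3 at 5 dpi and 31.6, 40.2 and 33.8 at 7 dpi. The 1 dpi samples stood apart from all 12 other samples, and the other 3 injured groups overlapped with uninjured kidneys. The log2 change at 1 dpi was 1.76 (SE 0.20, limma adjusted p = 0.0027). The transcription factor gene ets2 had 7.74, 7.05 and 9.71 FPKM in uninjured kidneys, 28.5, 33.7 and 57.1 at 1 dpi, 9.67, 17.8 and 20.6 at 3 dpi, 14.1, 12.7 and 19.4 at 5 dpi and 6.17, 9.13 and 5.87 at 7 dpi. Its 1 dpi values were above those of every other sample, its 5 dpi values were above all uninjured values, and its 7 dpi values overlapped with them. The log2 change of ets2 was 2.1 (SE 0.31, limma adjusted p = 0.0066) at 1 dpi, 0.83 at 5 dpi (limma adjusted p = 0.0765) and -0.20 at 7 dpi (limma adjusted p = 0.545).

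**Figure D2:**
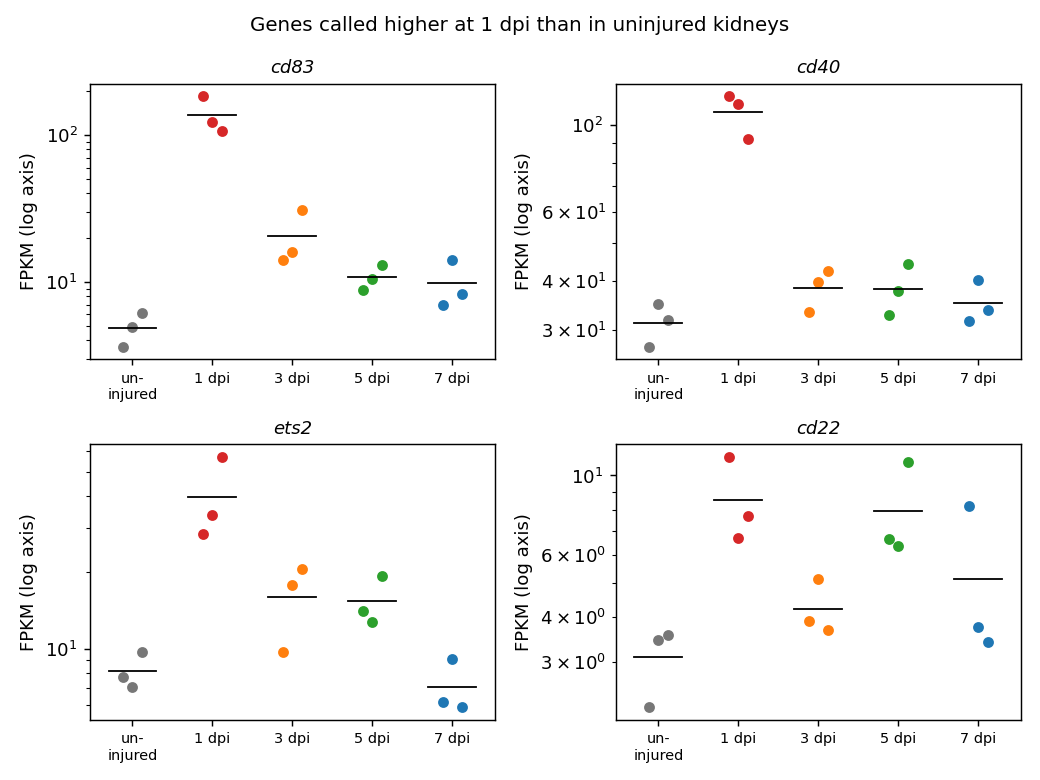
Points are the FPKM of single samples of cd83, cd40, ets2 and cd22 on a log axis, by group from uninjured kidneys to 7 dpi, and lines are means of 3 samples. For cd83, cd40 and ets2 the 3 samples at 1 dpi lie above all samples of the other groups, while for cd22 they overlap with the 5 dpi samples.

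The other genes higher at 1 dpi were cd22, an inhibitory receptor of B cells, and cd151, a tetraspanin of many cell types. cd22 had a log2 change of 1.21 (SE 0.29, limma adjusted p = 0.0326) and cd151 of 0.90 (SE 0.22, limma adjusted p = 0.0354). The call of cd22 held in 1 of 6 fits without 1 sample and that of cd151 in 0 of 6, with limma adjusted p values of up to 0.10 and 0.114. Under quantile normalization both were lost, and b2ml and cd74b were called lower at 1 dpi instead, with log2 changes of -1.32 and -1.18 and limma adjusted p values of 0.0346 and 0.0193.

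The class II pathway was represented by the invariant chain genes. cd74a was the most abundant of the 53 transcripts. It had 736, 628 and 834 FPKM in uninjured kidneys, 577, 875 and 859 at 1 dpi, 1082, 1363 and 1144 at 3 dpi, 1458, 1566 and 1654 at 5 dpi and 1374, 1585 and 1178 at 7 dpi. Values at 3, 5 and 7 dpi were above all uninjured values, and those at 1 dpi overlapped with them. The log2 change of cd74a was 1.1 (SE 0.24, limma adjusted p = 0.0461) at 5 dpi and 0.91 (SE 0.23, limma adjusted p = 0.0459) at 7 dpi, and neither call held in a fit that left out 1 sample. Its paralogue cd74b had 420.2, 338 and 483 FPKM in uninjured kidneys, 243, 348 and 321 at 1 dpi, 629.6, 549 and 638 at 3 dpi, 652, 715 and 779 at 5 dpi and 648, 849 and 592 at 7 dpi. The cd74b values at 3, 5 and 7 dpi were also above all uninjured values, but the limma adjusted p values of 0.131, 0.0835 and 0.0796 missed the threshold.

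Of the 6 genes of the class I pathway, tap1, mhc1zja and b2ml were below their uninjured values in every 1 dpi sample, without passing the test, although tap1 and b2ml passed it in 3 of 10 alternatives and mhc1zja in 4. tap1, a subunit of the peptide transporter, had 13.2, 14.4 and 10.24 FPKM in uninjured kidneys, 7.16, 6.51 and 7.67 at 1 dpi, 9.80, 14.9 and 18.6 at 3 dpi, 12.3, 15.3 and 15.3 at 5 dpi and 5.98, 10.24 and 8.52 at 7 dpi. Its 1 dpi values were all below its uninjured values, with a log2 change of -0.74 (SE 0.23, limma adjusted p = 0.0628). The 1 dpi values of the class I gene mhc1zja were 2.31, 2.66 and 4.42 FPKM, against 8.14, 9.30 and 5.5 FPKM in uninjured kidneys, again without overlap. For mhc1zja the log2 change was -1.07 (SE 0.32, limma adjusted p = 0.0568). b2ml, which encodes a relative of the class I light chain, had 213, 149 and 232 FPKM at 1 dpi, also below its uninjured values of 399, 303 and 248 FPKM, with a limma adjusted p of 0.127. At 3 dpi b2ml had 527, 468 and 585 FPKM, above all uninjured values, with a limma adjusted p of 0.0909. In the same 1 dpi samples cd83 lay above its uninjured values, while the differences of these 3 genes missed the threshold. Of the 5685 genes tested, 3075 had a log2 change below 0 at 1 dpi and 392 were called lower. How many lay below all their uninjured values was not counted, so these 3 genes cannot be set against such a share. At 1 dpi 3 of the 8 antigen presentation genes, namely these 3, had an unadjusted limma p below 0.05. So had 2146 of the 5685 genes tested, a share near that of the 8.

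The other 3 class I genes did not lie below their uninjured values at 1 dpi. mhc1lfa had 25, 6 and 2 reads at 1 dpi and 0, 0 and 1 reads in uninjured kidneys, and no ratio is given for it because it had fewer than 3 reads in 11 of the 15 samples. mhc1lda overlapped with its uninjured values at 1 dpi, with a log2 change of -0.01 (SE 0.60, limma adjusted p = 0.988). It had 0 reads in 2 samples, and its FPKM at 5 dpi were 5.53, 2.05 and 7.25, against 0.637, 0 and 3.96 in uninjured kidneys. tapbp.1, a gene of the tapasin family that bridges Tap and class I molecules, had 1.28, 1.59 and 1.89 FPKM in uninjured kidneys, 3.46, 2.75 and 0.678 at 1 dpi, 1.59, 1.52 and 1.43 at 3 dpi, 1.33, 1.26 and 1.05 at 5 dpi and 7.92, 0.788 and 0.782 at 7 dpi. Its 1 dpi samples fell on both sides of the uninjured ones, with a log2 change of 0.24 (SE 0.40, limma adjusted p = 0.662), and at 7 dpi 1 sample was far above the others.

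The cathepsins ctsk and ctss2.2, proteases of lysosomes, were higher at 3, 5 and 7 dpi. Cathepsin K degrades bone matrix in mammalian osteoclasts, and cathepsin S trims the invariant chain in mammalian antigen presenting cells. ctsk had 58.4, 64.9 and 59.3 FPKM in uninjured kidneys, 69.3, 62.7 and 69.5 at 1 dpi, 113, 128 and 122 at 3 dpi, 111, 145 and 129 at 5 dpi and 145, 164 and 108 at 7 dpi. All 9 samples from 3 dpi on were above every uninjured and every 1 dpi sample. For ctsk the log2 change was 0.98 (SE 0.16, limma adjusted p = 0.0183) at 3 dpi, 1.06 (SE 0.17, limma adjusted p = 0.026) at 5 dpi and 1.15 (SE 0.20, limma adjusted p = 0.0236) at 7 dpi. ctss2.2 had 35.2, 38.4 and 42.1 FPKM in uninjured kidneys, 38.9, 50.7 and 43.4 at 1 dpi, 76.5, 81.5 and 78.8 at 3 dpi, 88.1, 105 and 97.3 at 5 dpi and 74.5, 129 and 69.8 at 7 dpi. It showed the same separation of the 9 later samples from the 6 uninjured and 1 dpi samples. For ctss2.2 the log2 change was 1.02 (SE 0.16, limma adjusted p = 0.0169) at 3 dpi, 1.31 (SE 0.16, limma adjusted p = 0.0178) at 5 dpi and 1.17 (SE 0.27, limma adjusted p = 0.0376) at 7 dpi. These 6 calls each held in 1 to 3 of the 6 fits without 1 sample. The third cathepsin, ctsf, passed at no time, and its log2 changes lay between -0.29 and 0.27.

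cd63, a tetraspanin of late endosomes and lysosomes that many cell types express, was called higher at the same times as ctsk and ctss2.2. It had 259, 284 and 247 FPKM in uninjured kidneys, 457, 365 and 364 at 1 dpi, 543, 513 and 518 at 3 dpi, 456, 461 and 477 at 5 dpi and 568, 429 and 406 at 7 dpi. All 12 injured samples were above all 3 uninjured samples. For cd63 the log2 change was 0.99 (SE 0.19, limma adjusted p = 0.0258) at 3 dpi, 0.82 (SE 0.17, limma adjusted p = 0.0449) at 5 dpi and 0.81 (SE 0.20, limma adjusted p = 0.0442) at 7 dpi, while the 0.58 at 1 dpi had a limma adjusted p of 0.083.

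The oxidase subunits were highest at 5 dpi. cyba had 81.5, 84.5 and 93.6 FPKM in uninjured kidneys, 106, 86.1 and 115 at 1 dpi, 132, 129 and 133 at 3 dpi, 151, 217 and 192 at 5 dpi and 146, 184 and 118 at 7 dpi. ncf4 had 16.4, 16.2 and 16.2 FPKM in uninjured kidneys, 16.7, 15.3 and 24.6 at 1 dpi, 21.3, 25.7 and 24.6 at 3 dpi, 29.2, 42.2 and 42.7 at 5 dpi and 21.6, 28.2 and 20.5 at 7 dpi. From 3 dpi on, all values of both genes were above their uninjured values. At 5 dpi the log2 change was 1.09 (SE 0.20, limma adjusted p = 0.0336) for cyba and 1.16 (SE 0.20, limma adjusted p = 0.0299) for ncf4, and each call held in 1 of 6 fits without 1 sample. At 7 dpi the limma adjusted p of cyba was 0.0535 and that of ncf4 was 0.102.

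**Figure D3:**
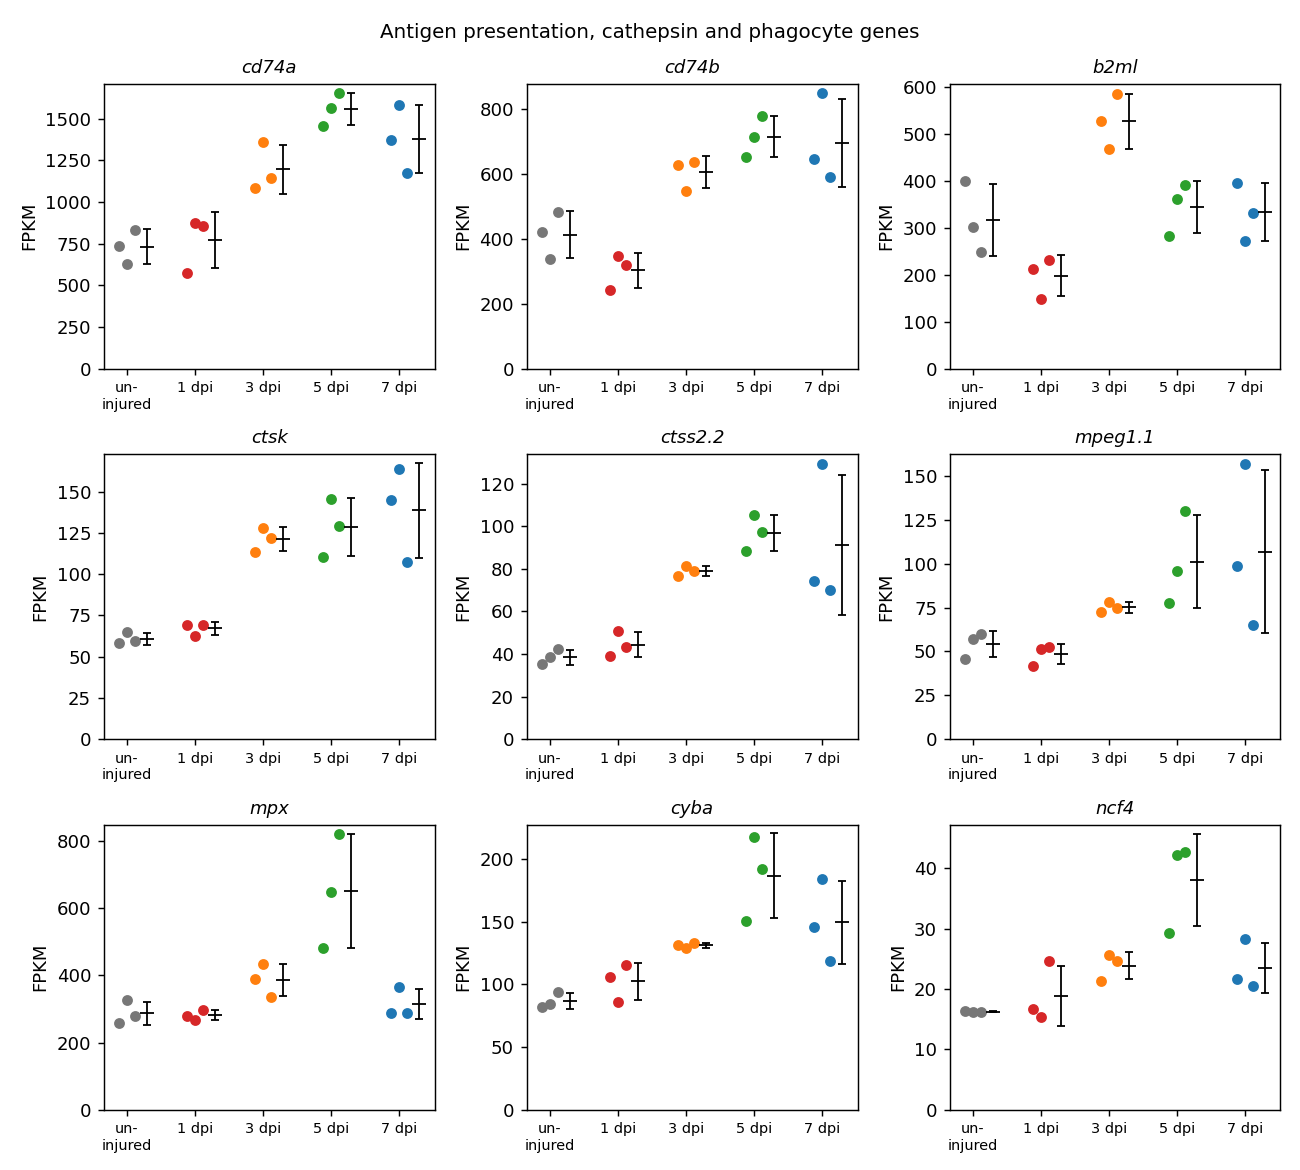
Points are the FPKM of single samples, by group from uninjured kidneys to 7 dpi, with the mean and SD of 3 samples beside them, for 9 antigen presentation, cathepsin, phagocyte and oxidase genes. Axes start at 0 and differ between panels. For cd74a, ctsk and ctss2.2 all samples from 3 dpi on lie above the uninjured samples, while b2ml is lowest at 1 dpi and highest at 3 dpi.

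Markers of neutrophils and macrophages passed the limma test against uninjured kidneys at no single time, although 1, 2, 3 and 1 of the 4 genes had an unadjusted p below 0.05 at 1, 3, 5 and 7 dpi. Of all 5685 genes tested, 2146, 2161, 1723 and 2051 had such a p at these times. limma voom on the reads recovered from the FPKM also called 0 of the 4, but other alternatives called some of them. mpx, which encodes a peroxidase of zebrafish neutrophils, had 259, 326 and 279 FPKM in uninjured kidneys, 280.2, 269 and 297 at 1 dpi, 388, 434 and 337 at 3 dpi, 481, 649 and 821 at 5 dpi and 288, 366 and 289 at 7 dpi. The 5 dpi values were above those of all other samples, yet the log2 change of 1.14 (SE 0.26, limma adjusted p = 0.054) missed the threshold, although it passed in 4 of 10 alternatives, with limma adjusted p values from 0.00374 to 0.101. mpeg1.1, a perforin-like gene used as a macrophage marker in zebrafish, had 46.0, 57.0 and 60.1 FPKM in uninjured kidneys, 41.9, 51.4 and 52.5 at 1 dpi, 72.3, 78.3 and 74.5 at 3 dpi, 77.7, 95.7 and 129.9 at 5 dpi and 98.9, 157 and 65.2 at 7 dpi. Its values from 3 dpi on were above all uninjured values, with limma adjusted p values of 0.112, 0.0816 and 0.118 at 3, 5 and 7 dpi, and it passed in 1 of 10 alternatives at 5 dpi and in 2 at 7 dpi. marco, a scavenger receptor gene of macrophages, had 200.3, 181 and 190.3 FPKM in uninjured kidneys, 237, 271 and 342 at 1 dpi, 285, 296 and 371 at 3 dpi, 273, 286 and 359.9 at 5 dpi and 594, 372 and 168 at 7 dpi. It was above its uninjured values in every sample at 1, 3 and 5 dpi, and at 7 dpi its samples spread to both sides of them. The lowest limma adjusted p of marco was 0.0571, at 3 dpi, where 4 of 10 alternatives called it, with values from 0.0379 to 0.317. cd36, a scavenger receptor gene also expressed outside the blood, had log2 changes between -0.54 and -0.15 and was not called.

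T cell genes were low throughout. The co-receptor gene cd4-1 had 2.82, 1.44 and 2.52 FPKM in uninjured kidneys, 2.37, 1.77 and 2.3 at 1 dpi, 4.24, 3.21 and 5.03 at 3 dpi, 4.94, 3.97 and 4.82 at 5 dpi and 4.72, 5.26 and 4.57 at 7 dpi. Its values from 3 dpi on were above all uninjured values, with a log2 change of 0.87 (SE 0.23, limma adjusted p = 0.0517) at 7 dpi. cd27, a costimulatory receptor gene of lymphocytes, had 3.56, 3.27 and 3.54 FPKM at 5 dpi against 0.622, 0.609 and 1.58 FPKM in uninjured kidneys. It was the T and NK cell gene called against uninjured kidneys, with a log2 change of 1.24 (SE 0.24, limma adjusted p = 0.0367), a call that held in 1 of 6 fits without 1 sample. rag1, the recombinase gene of developing lymphocytes, had 3.55, 3.44 and 3.94 FPKM in uninjured kidneys, 6.62, 7.94 and 3.53 at 1 dpi, 4.92, 3.66 and 2.4 at 3 dpi, 4.56, 4.10 and 5.88 at 5 dpi and 3.2, 3.22 and 2.81 at 7 dpi. Values at 5 dpi were all above and values at 7 dpi all below the uninjured ones, by little, with log2 changes of 0.32 (SE 0.20, limma adjusted p = 0.323) and -0.19 (SE 0.17, limma adjusted p = 0.446).

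The NK-lysin genes encode small membrane-damaging proteins of cytotoxic lymphocytes. nkl.4 was the most abundant of the 8 T and NK cell genes and had 28.0, 11.9 and 8.40 FPKM in uninjured kidneys, 4.26, 7.67 and 5.49 at 1 dpi, 16.5, 15.2 and 12.9 at 3 dpi, 10.1, 19.3 and 17.8 at 5 dpi and 27.1, 20.5 and 18.8 at 7 dpi. Its 1 dpi values were below every value of the other groups. The uninjured samples ranged more than 3 dpi or 7 dpi samples did, and the log2 change at 1 dpi was -1.19 (SE 0.46, limma adjusted p = 0.109). At 1 dpi, 7 of the 8 T and NK cell genes had a log2 change below 0, and 3 of them an unadjusted p below 0.05, with a median of -0.29 for the 8 genes. The exception was rag1, with a log2 change of 0.54. Of all 5685 genes tested, 3075 were below 0 and 2146 had an unadjusted p below 0.05, with a median of -0.09. The share of the 8 genes with such a p was thus near that of all genes. The paralogue nkl.2 had 1.12, 1.52 and 0.442 FPKM at 1 dpi against 1.81, 2.56 and 2.54 FPKM in uninjured kidneys, without overlap, and a limma adjusted p of 0.10. nkl.3 overlapped with its uninjured values of 19.4, 6.10 and 4.25 FPKM at every time. cd4-2.2, a second CD4 co-receptor gene of fish, had 0.868, 1.44 and 1.69 FPKM at 1 dpi, below its uninjured values of 2.38, 2.99 and 2.66 FPKM, with a limma adjusted p of 0.088.

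Of the 19 immunoglobulin loci, 13 were variable segments, and these were the most variable of the genes. The median SD of log2(FPKM + 1) within groups was 0.866 for the 13 segments, 0.497 for the 6 other immunoglobulin loci, 0.291 for the 34 other leukocyte genes and 0.328 for all listed genes. For 8 of the 13 segments it was above that of every gene among the 34 others. For example, igl4v9 had 10.9, 1.31 and 3.09 FPKM in uninjured kidneys, 52.9, 0.823 and 8.82 at 1 dpi, 3.78, 23.7 and 0.148 at 3 dpi, 0.925, 26.9 and 1.87 at 5 dpi and 18.9, 20.3 and 6.82 at 7 dpi. igl3v2 had 1.54, 0.353 and 9.76 FPKM in uninjured kidneys, 0.509, 0.667 and 0.879 at 1 dpi, 46.5, 4.18 and 3.42 at 3 dpi, 16.3, 2.93 and 3.67 at 5 dpi and 2.98, 26.1 and 48.3 at 7 dpi. In both, samples of a single group, such as those at 3 dpi, spread over more than the range of the uninjured samples.

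The heavy chain loci lay together on chromosome 3 of the GRCz11 assembly. The locus labelled ighv1-4 spans 33833739 to 33965713 in the table, and the reference gene names give its identifier the symbol ighm. Its span contains the segments ighv4-6, ighv9-1 and ighv9-2 and the constant gene ighz, and all of these are on the same strand. Reads of these loci, of other near-identical segments and of igl4v9 inside igl4c1 on chromosome 25 may have been split or shared in counting, so their values are uncertain. The labels and methods do not give a strand setting for the counting.

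ighv1-4 was the most abundant immunoglobulin locus, with 226, 74.3 and 119 FPKM in uninjured kidneys, 113, 66.5 and 118 at 1 dpi, 159, 209.8 and 149 at 3 dpi, 178, 211 and 246 at 5 dpi and 184, 343 and 359.8 at 7 dpi. The 7 dpi samples overlapped with uninjured replicate 1, and the log2 change was 1.16 (SE 0.47, limma adjusted p = 0.136). ighv4-1 had 17.1, 5.92 and 3.74 FPKM in uninjured kidneys, 1.78, 2.80 and 7.36 at 1 dpi, 8.09, 9.13 and 4.15 at 3 dpi, 15.3, 9.22 and 20.7 at 5 dpi and 25.7, 17.6 and 15.8 at 7 dpi. ighv9-2 had 2.08, 6.70 and 43.5 FPKM in uninjured kidneys, 22.2, 3.25 and 3.81 at 1 dpi, 8.19, 15.9 and 5.67 at 3 dpi, 46.1, 44.0 and 58.0 at 5 dpi and 18.1, 76.1 and 75.3 at 7 dpi. For both segments 1 uninjured sample was several times the other 2, replicate 1 for ighv4-1 and replicate 3 for ighv9-2. The log2 change of 2.3 (SE 0.94, limma adjusted p = 0.165) for ighv9-2 at 5 dpi did not pass the test.

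The 4 immunoglobulin loci called at 7 dpi were igl3v1, igl3v5, igl2v1 and ighv9-1, all higher. The light chain segment igl3v1 had 1.42, 0.327 and 0.348 FPKM in uninjured kidneys, 0.471, 1.08 and 1.63 at 1 dpi, 2.13, 2.69 and 1.84 at 3 dpi, 1.91, 0.754 and 1.78 at 5 dpi and 4.30, 4.86 and 4.76 at 7 dpi. Its 7 dpi samples were above all other samples and differed little among themselves, but the values rest on 28, 30 and 31 reads at 7 dpi and on 8, 2 and 2 reads in uninjured kidneys. For igl3v1 the log2 change was 1.79 (SE 0.28, limma adjusted p = 0.02) and held in 3 of 6 fits without 1 sample. igl2v1, which the annotation calls a variable segment pseudogene, had 1.1, 0.672 and 1.07 FPKM in uninjured kidneys, 0.646, 1.59 and 1.0 at 1 dpi, 3.13, 3.11 and 5.49 at 3 dpi, 1.78, 0.775 and 5.82 at 5 dpi and 3.47, 2.5 and 3.31 at 7 dpi. It was higher at 3 dpi by 1.31 (SE 0.27, limma adjusted p = 0.0295) and at 7 dpi by 1.07 (SE 0.19, limma adjusted p = 0.0236), while at 5 dpi its samples overlapped with the uninjured ones. These values rest on 20, 18 and 32 reads at 3 dpi, 22, 15 and 21 at 7 dpi and 6, 4 and 6 in uninjured kidneys. The 3 dpi call of igl2v1 held in 1 of 6 fits without 1 sample. igl3v5 and ighv9-1 had log2 changes of 1.79 (SE 0.36, limma adjusted p = 0.0297) and 1.96 (SE 0.51, limma adjusted p = 0.0492) at 7 dpi. With limma voom on the recovered reads, igl3v1 and igl3v5 were called at 7 dpi, but igl2v1 and ighv9-1 were not. At 3 dpi it called 0 of the 21 B cell and immunoglobulin genes. Of the 21 B cell and immunoglobulin genes, 20 had a log2 change above 0 at 7 dpi, with a median of 1.16. Of all 5685 genes tested, 2107 were above 0, with a median of -0.22. The exception among the 21 was ighd, the constant gene of immunoglobulin D, at -0.17. ighd had 2.69, 3.47 and 0.796 FPKM at 1 dpi against 1.07, 0.625 and 2.46 FPKM in uninjured kidneys, and ighz, the constant gene of a fish isotype, had 5.09, 7.47 and 1.46 FPKM at 1 dpi against 2.88, 1.54 and 2.06 FPKM in uninjured kidneys. Neither these constant genes nor the light chain loci igic1s1, igl3c3 and igl4c1 were called against uninjured kidneys, the closest being igl3c3 at 7 dpi with a log2 change of 1.35 (SE 0.36, limma adjusted p = 0.0518). The segments ighv4-5, ighv4-6, ighv5-3, ighv6-1 and igl2v2 were not called either. For ighv4-5, ighv5-3 and igl2v2 1 uninjured sample was again far above the other 2, with 2.55, 1.80 and 15.2 FPKM for ighv4-5, 22.8, 3.70 and 2.62 for ighv5-3 and 8.05, 2.52 and 49.3 for igl2v2.

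**Figure D4:**
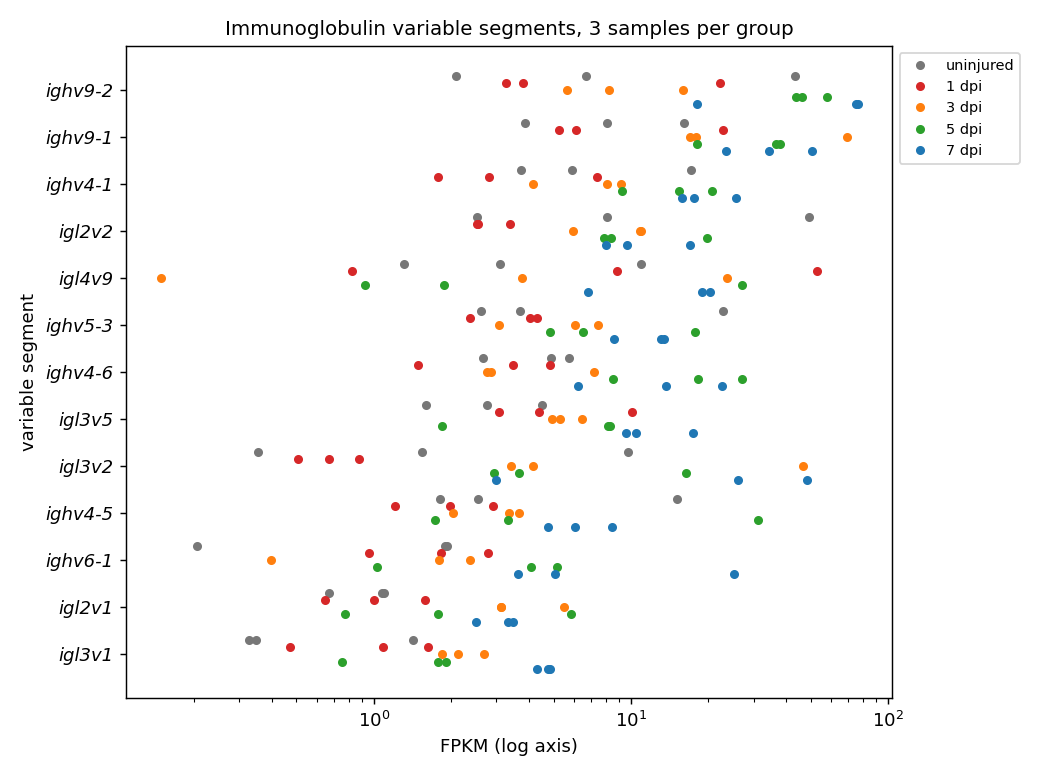
Points are the FPKM of single samples of the 13 immunoglobulin variable segments, coloured by group from uninjured kidneys to 7 dpi, on a log axis. Samples of 1 group are spread over a wide range for most variable segments, while the 3 samples of igl3v1 at 7 dpi lie close together between 4.30 and 4.86 FPKM.

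Among the broadly expressed genes, coro1b was the gene called lower after injury. It encodes a coronin, an actin-binding protein, and unlike coro1a is not restricted to leukocytes. It had 19.1, 24.3 and 19.6 FPKM in uninjured kidneys, 21.7, 15.5 and 23.1 at 1 dpi, 11.2, 9.38 and 11.2 at 3 dpi, 10.5, 12.1 and 7.47 at 5 dpi and 8.93, 11 and 9.49 at 7 dpi. Values at 3, 5 and 7 dpi were all below the uninjured ones, and those at 1 dpi overlapped with them. For coro1b the log2 change was -0.92 (SE 0.18, limma adjusted p = 0.0283) at 3 dpi, -1.01 (SE 0.22, limma adjusted p = 0.0499) at 5 dpi and -1.02 (SE 0.17, limma adjusted p = 0.0228) at 7 dpi, and under median-of-ratios scaling and under quantile normalization these 3 calls were lost. cd44a, a hyaluronan receptor gene, was low, with 2.28, 3.60 and 1.3 FPKM at 5 dpi against 0.329, 0.101 and 0 FPKM in uninjured kidneys, and its log2 change was 1.52 (SE 0.28, limma adjusted p = 0.0337). That value rests on 64, 116 and 39 reads at 5 dpi and on 9, 3 and 0 reads in uninjured kidneys. cd248b, a gene of stromal cells, had 2.13, 1.45 and 1.86 FPKM at 7 dpi against 1.52, 0.713 and 0.517 FPKM in uninjured kidneys and was called only between late and early kidneys.

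The injured groups were also compared with each other, without the uninjured samples, as late kidneys (5 and 7 dpi, 6 samples) against early kidneys (1 and 3 dpi, 6 samples). Here 28 of the 53 genes were called at a limma adjusted p below 0.05, with a background of 35.7%. Of these, 24 were higher in late kidneys, or 45.3% of the 53 with a background of 15.5%, and 4 were lower, with a background of 20.2%. The median log2 difference was 0.52 for the 53 genes and 0.01 for all listed genes. The count ranged from 22 to 29 when each of the 12 samples was left out in turn.

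The 4 genes lower in late kidneys were cd83, ets2, cd40 and coro1b. cd83 averaged 10.25 ± 2.84 FPKM in late kidneys and 78.8 ± 69.4 FPKM in early kidneys (SD, n = 6 each), with a log2 difference of -2.25 (SE 0.24, limma adjusted p = 8.46e-05). The difference was -1.15 (SE 0.23, limma adjusted p = 0.0042) for ets2, -0.80 (SE 0.13, limma adjusted p = 0.0011) for cd40 and -0.52 (SE 0.15, limma adjusted p = 0.0233) for coro1b. For cd83 and cd40 the 1 dpi samples carried the early mean, as the values above show. The call of cd40 was lost under quantile normalization, with a limma adjusted p of 0.098, and that of coro1b under the same setting (0.107), with the ovary level as a covariate (0.055) and without 7 dpi replicate 1 (0.0505).

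The genes higher in late kidneys came from every lineage except those of cd83 and ets2. They were 8 of the 21 B cell and immunoglobulin genes, 6 of the 8 T and NK cell genes, cd74a and cd74b, ctsk and ctss2.2, cyba and ncf4, mpx and mpeg1.1, and cd44a and cd248b. The largest differences were those of variable segments, with 2.47 (SE 0.49, limma adjusted p = 0.004) for ighv9-2, 1.78 (SE 0.38, limma adjusted p = 0.0056) for ighv4-6 and 1.58 (SE 0.31, limma adjusted p = 0.0036) for ighv4-1. ighv4-1 averaged 17.4 ± 5.54 FPKM in late kidneys and 5.55 ± 3.04 FPKM in early kidneys (SD, n = 6 each), and its late samples were all above its early ones. ighv1-4 was higher by 0.92 (SE 0.21, limma adjusted p = 0.0089). These immunoglobulin calls held without any 1 of the 12 samples.

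Among T and NK cell genes, nkl.4 was higher in late kidneys by 0.91 (SE 0.19, limma adjusted p = 0.0053), cd4-1 by 0.51 (SE 0.14, limma adjusted p = 0.0159), and cd226, an adhesion receptor gene of T and NK cells, by 0.69 (SE 0.18, limma adjusted p = 0.0143). For antigen presentation, cd74b was higher by 0.72 (SE 0.14, limma adjusted p = 0.0044) and cd74a by 0.62 (SE 0.16, limma adjusted p = 0.0128). mpeg1.1 was higher by 0.72 (SE 0.21, limma adjusted p = 0.022). All 6 of these calls held without any 1 of the 12 samples. mpx was higher by 0.43 (SE 0.15, limma adjusted p = 0.0463), a call that was lost when any of 11 samples was left out, and cd27 and ncf4 lost theirs in 9 and 10 of 12 such fits. For some genes the 1 dpi samples lay below all later ones. At 1, 3, 5 and 7 dpi nkl.4 averaged 5.81, 14.9, 15.7 and 22.1 FPKM, cd4-1 2.15, 4.16, 4.58 and 4.85, and ctsk 67.2, 121, 128 and 139. By contrast, ighv9-2 averaged 9.77, 9.93, 49.4 and 56.5 FPKM. mpx averaged 282, 387, 650 and 314 FPKM, so 5 dpi carried its late mean. The plot of late against early differences shows the 53 genes in order of lineage.

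**Figure D5:**
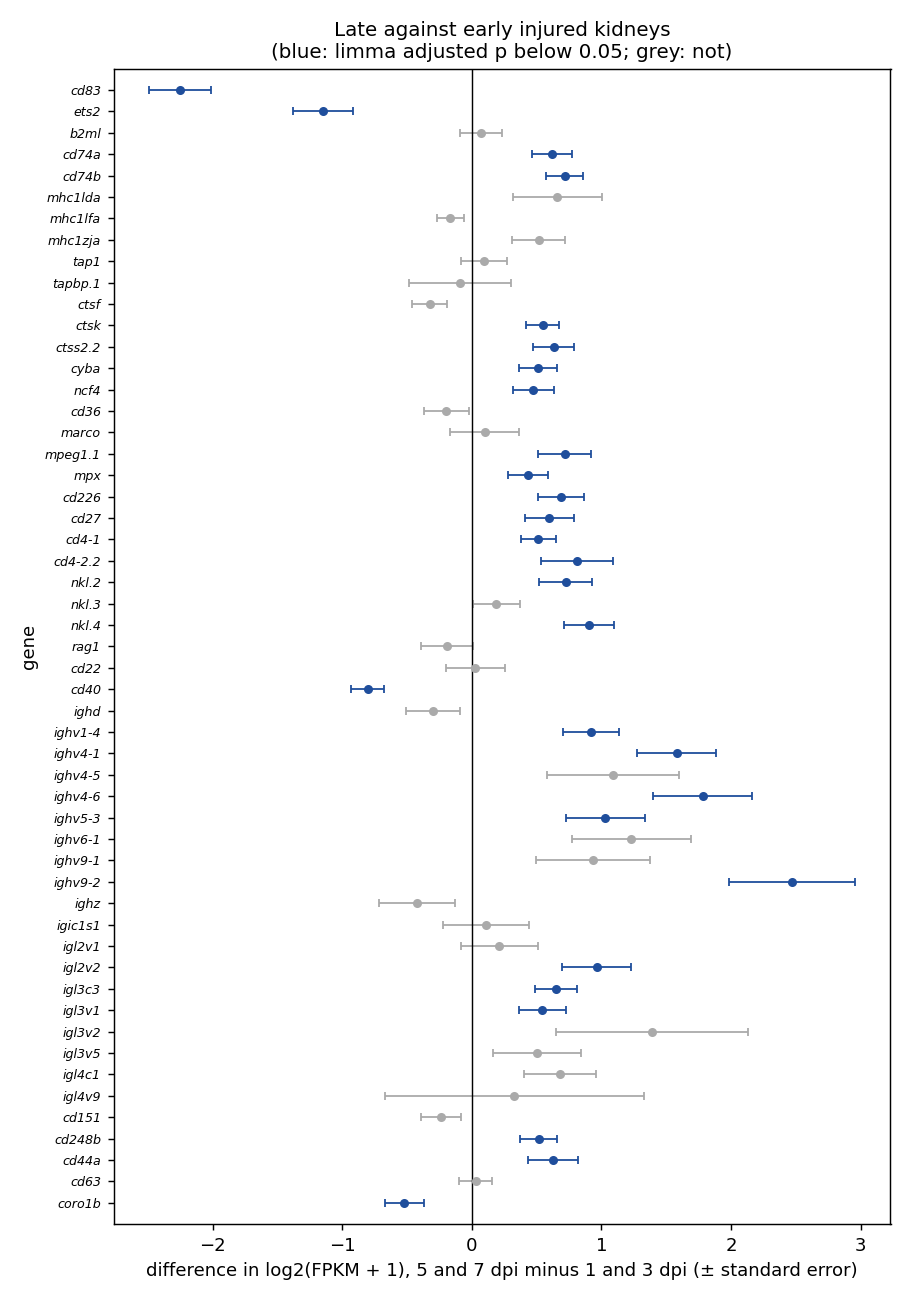
Each point is the difference in log2(FPKM + 1) of 1 of the 53 genes, mean of 5 and 7 dpi minus mean of 1 and 3 dpi, with its standard error, over 12 injured samples. Blue points have a limma adjusted p below 0.05. Of the blue points 24 lie to the right of 0 and 4, namely cd83, ets2, cd40 and coro1b, to the left.

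Other genes, outside the 53, were counted from lists of genes used as leukocyte markers. Not all of them are restricted to leukocytes. The paper, for example, uses lef1, which is in the T and NK cell list, as a marker of Wnt activity. Which cells gave the transcripts of the listed genes in whole kidneys was not tested. Of 16 listed macrophage genes, 3 were higher and 1 lower at 1 dpi, 6 higher at 3 dpi, 6 higher at 5 dpi and 2 higher at 7 dpi. The background of higher calls was 12.9%, 6.4%, 6.7% and 4.78% at these times. The macrophage genes called higher included ccl34a.4, a chemokine gene, with a log2 change of 3.54 at 1 dpi, and hmox1a, a heme oxygenase gene, with 4.85 (limma adjusted p = 5.1e-04 and 0.0016). The summed level of the 16 genes was 488 to 577 FPKM in uninjured kidneys, 1526 to 3328 (1 dpi), 1103 to 1680 (3 dpi), 946 to 1171 (5 dpi) and 699 to 1155 (7 dpi). hmox1a alone gave 960 to 2805 FPKM of the 1 dpi sum. The sum of the other 15 genes was 415 to 539 FPKM in uninjured kidneys, 522 to 578 (1 dpi), 986 to 1586 (3 dpi), 762 to 1035 (5 dpi) and 632 to 1020.4 (7 dpi), so that without hmox1a the 1 dpi samples overlapped with the uninjured ones. A large part of the 3 dpi sums came from 1 gene too. lgals3bpb alone had 316, 566 and 853 FPKM at 3 dpi, against 47.7, 22.7 and 40.6 FPKM in uninjured kidneys. The levels without lgals3bpb were not summed. Of 7 listed neutrophil genes, pnp5a and illr4 were higher at 1 dpi, pnp5a at 5 dpi, and s100a10b and pnp5a at 7 dpi.

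Of 15 other T and NK cell genes, 7 were higher and 2 lower in late than in early kidneys, with backgrounds of 15.5% and 20.2%. Against uninjured kidneys, 3 of these genes were higher and 1 lower at 1 dpi, with backgrounds of 12.9% and 6.9%. The median log2 change of the 15 genes at 1 dpi was -0.08, near the -0.09 of all listed genes. dusp2 had 272, 292 and 319 FPKM at 1 dpi against 6.99, 4.52 and 8.88 FPKM in uninjured kidneys. tagapa had 33.6, 42.7 and 14.96 FPKM at 1 dpi against 2.80, 2.63 and 3.03 FPKM. For both genes the 1 dpi values were above those of every other sample, and whether T or NK cells gave these transcripts was not tested. Values of sh2d1ab and gzma went the other way. sh2d1ab had 2.56, 3.62 and 2.82 FPKM at 1 dpi against 7.80, 5.58 and 6.82 FPKM in uninjured kidneys. gzma had 1.75, 2.68 and 3.10 FPKM at 1 dpi against 3.97, 4.76 and 8.53 FPKM. ccr9a, a chemokine receptor gene, was higher than in uninjured kidneys at all 4 times, with log2 changes of 1.41, 1.82, 2.64 and 1.82. foxp3a, the regulatory T cell factor gene, was higher at 5 dpi by 1.77 and at 7 dpi by 0.70. Of 7 other antigen processing genes, irf1b, an interferon regulatory factor gene, was higher at 1 dpi with a log2 change of 2.27 (limma adjusted p = 0.0055). ifi30, a lysosomal thiol reductase gene that helps to unfold antigens for class II loading, was lower at 1 dpi with -1.43 (limma adjusted p = 0.024). In late against early kidneys ifi30 was higher by 0.80 and irf1b lower, at -1.22.

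Markers of other kidney cells and of neighbouring tissue also moved in these samples, and their part in the results above was not tested. Of 15 proximal tubule genes, 6, 8, 3 and 10 were lower at 1, 3, 5 and 7 dpi, and their summed level was 613 to 633 FPKM at 7 dpi, against 1731 to 2872 FPKM in uninjured kidneys. The summed level of 10 listed erythrocyte genes, with ba1 in 2 entries, was 6117 to 17254 FPKM in uninjured kidneys, 4615 to 16111 (1 dpi), 3329 to 5873 (3 dpi), 2112 to 6108 (5 dpi) and 8839 to 15402 (7 dpi), and fech was called lower at 3 dpi. Of 9 genes of the renal interstitium, 7 were higher in late than in early kidneys. The summed level of 22 ovary genes ranged from 21.0 to 40.5 FPKM at 3 dpi. It was 1650, 32.5 and 2466 FPKM in uninjured replicates 1, 2 and 3, and 1251, 33.1 and 35.4 FPKM in those of 5 dpi. The ovary level of each sample was also used as a covariate, in fits on all 15 samples. These fits called 11, 7, 15 and 17 of the 53 genes at 1, 3, 5 and 7 dpi, and 2217, 797, 908 and 1919 of all listed genes. Fits on all 15 samples without the covariate called 10, 12, 17 and 15 of the 53, and 1987, 1493, 1063 and 1315 of all listed genes. The listed genes held 28.7% to 33.7% of all reads at 1 dpi and 24.1% to 25.2% in uninjured kidneys.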

How the data were processed

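Polyadenylated RNA of whole kidneys was sequenced as paired-end reads. The authors deposited 1 table of FPKM per gene and sample. Per the labels and the paper's methods, transcripts were assembled with StringTie 1.3.3b and reads were counted per gene with featureCounts 1.5.0-p3 on GRCz11. The aligner is not given in the sources used here. Samples were grouped by their titles. The table lists 5686 genes and is a selection, since 4024 of the 5685 tested had an unadjusted F-test p below 0.05.

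The values were tested as log2(FPKM + 1) with limma 3.58.1 in R 4.3.3 (lmFit, eBayes with a trend, two-sided). Genes above 0 FPKM in at least 3 of 15 samples were kept, and Benjamini-Hochberg adjustment ran over all 5685 of them, with a threshold of 0.05. The pseudocount of 1 lowers the fold changes of genes with low levels. Each time was compared with uninjured kidneys on 6 samples, all groups by an F-test on 15, and late with early kidneys on 12.

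FPKM were turned back into whole reads for 99.98% of the genes, which gave the depth. A recovered read may be a read pair. Intervals and floors in reads cover counting error only. Gene symbols came from the table, and 48 of the 53 identifiers had a symbol in the reference names. No sequences were used here.

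The 53 genes, their lineages and the marker lists were chosen with earlier results of these data known. The lineage patterns for cd3 and cd8 were narrowed after the symbols had been read, so that cd36 and cd83 were not counted as T cell genes. Values of every sample are given for the 3 called genes with the lowest adjusted p per direction and comparison, the most abundant gene of each lineage and the listed defining genes, with some others where the text turns on them. Alternatives were median-of-ratios scaling, quantile normalization, adding 0.1 in place of 1, dropping the filter or raising it to an average of 1 FPKM, using all 15 samples in each fit, eBayes with no trend, a replicate block, the ovary level as a covariate and leaving out each sample. limma voom on the recovered reads was added after the data had been seen. The fits were tested on simulated data.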

Additional observations from a re-analysis of the deposited data

Results flagged for a closer look

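The change between injured groups was tested directly for each of the 53 genes, as the difference in log2(FPKM + 1) between late (5 and 7 dpi) and early (1 and 3 dpi) kidneys. At a limma adjusted p below 0.05, 28 genes (52.8%) passed, with a background of 35.7% of all listed genes. Of the 28, 24 were higher and 4 lower, with backgrounds of 15.5% and 20.2%. Lower in late kidneys were cd83 (-2.25), ets2 (-1.15), cd40 (-0.80) and coro1b (-0.52). Among immunoglobulin loci, the differences were 2.47 for ighv9-2, 1.78 for ighv4-6, 1.58 for ighv4-1, 1.03 for ighv5-3, 0.96 for igl2v2, 0.92 for ighv1-4, 0.65 for igl3c3 and 0.55 for igl3v1. Among T and NK cell genes, they were 0.91 for nkl.4, 0.81 for cd4-2.2, 0.72 for nkl.2, 0.69 for cd226, 0.60 for cd27 and 0.51 for cd4-1. Among antigen presentation, cathepsin, phagocyte and oxidase genes, they were 0.72 for cd74b, 0.72 for mpeg1.1, 0.63 for ctss2.2, 0.62 for cd74a, 0.55 for ctsk, 0.51 for cyba, 0.47 for ncf4 and 0.43 for mpx. cd44a and cd248b were higher in late kidneys by 0.63 and 0.52. What the late groups differ in besides time was not tested.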

How the results depend on the processing

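Counts of called genes are given for the 53 leukocyte genes, with those of all listed genes after them. With single samples removed they ranged from 3 to 5 (539 to 1284) at 1 dpi, 0 to 6 (50 to 1678) at 3 dpi, 0 to 4 (0 to 189) at 5 dpi, 0 to 9 (0 to 1916) at 7 dpi, 29 to 35 (3161 to 4127) in the F-test and 22 to 29 (1576 to 1946) for late against early kidneys. A fit on all 15 samples gave 10 (1987), 12 (1493), 17 (1063) and 15 (1315) at 1, 3, 5 and 7 dpi. The ovary covariate, for these comparisons also fitted on all 15 samples, gave 11 (2217), 7 (797), 15 (908) and 17 (1919). Median-of-ratios scaling gave 4 (344) at 5 dpi, against 9 (464) without it. Quantile normalization gave 10 (573) at 7 dpi, against 9 (975) without it. Of all calls at 7 dpi 27.9% were higher, against 47.1% under median-of-ratios scaling and 62.5% under quantile normalization, and at 3 dpi 48.1%, against 59.8% and 70.4%. The cause of these changes was not tested.

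With the replicate number as a block, limma called 3 (314) genes at 1 dpi and 0 (0) at 3, 5 and 7 dpi, where 12, 24 and 21 of the 53 genes and 1805, 1713 and 1801 of all had an unadjusted p below 0.05. In the F-test and for late against early kidneys the block gave 32 (3519) and 26 (1984). Same-numbered samples showed no uniform tendency to deviate together, with correlations from -0.78 to 0.77 over 30 pairs of samples, 9 of them over 0.1. Between 5 dpi and uninjured samples the values were 0.51, 0.77 and -0.35 for replicates 1, 2 and 3. With 3 samples per group, such correlations cannot decide whether the numbers pair the samples. No call of the 53 genes changed sign. For genes with fewer than 3 reads in a sample, mhc1lfa above all, the low values rest on few reads. Some of these genes had many reads in other samples, such as mhc1lda, with 0 to 350 reads.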
